A study of Mus musculus with 4 samples.

Results

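miR-133a-3p and miR-133b-3p are the 2 mature 3p miRNAs of the miR-133 family, and the data described here are the chimeric reads that joined either of them to a target RNA in mouse plantaris muscle. Members were chosen by name, as every line of the peak files that carried mmu-miR-133a-3p or mmu-miR-133b-3p. This gave 10917 of 93468 lines in the MOV control library and 11783 of 100897 lines in the MOV mimic library, where a line is 1 miRNA in 1 peak and 560 miRNAs were listed in each library. Reads of both names in the same peak were summed, and the sum is called miR-133 reads below. Where 2 values stand together without a library, the MOV control comes first and the MOV mimic second.

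The study used chimeric eCLIP-seq, in which Ago2 is crosslinked to RNA and immunoprecipitated and the miRNA held by Ago2 is ligated to the RNA fragment it lies on, so that a chimeric read names both. The muscles came from male C57BL/6J mice, 5 months of age, in which the plantaris was put under mechanical overload (MOV) by removal of its synergists and taken after 10 days. All groups carried MOV and a lentivirus with a Turbo-GFP reporter under a mouse CMV promoter, a scramble control in the left plantaris (MOV control) or a miR-1 mimic in the right plantaris (MOV mimic), so leg and treatment cannot be told apart. Each group was 1 library, so there was no replicate error and no test of a difference between groups. Of the 4 libraries, the 2 inputs were not analysed here. The intervals given are 95% intervals (exact Clopper-Pearson for shares, exact conditional binomial for ratios) that cover counting error only, from reads rounded to whole numbers. PCR copies and differences between animals are outside them.

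miR-133a and miR-133b belong to the myomiRs, miRNAs made mainly in striated muscle. miR-133a is transcribed from loci that also hold miR-1, and miR-133b from a locus that also holds miR-206. A miRNA guides Ago2 to RNA mainly by its seed, the bases near its 5′ end, and the mature forms of miR-133a-3p and miR-133b-3p share the seed and differ only at the 3′ end. How reads were given to one or the other name was not stated in the sources used here, so the split between them is less certain than their sum. miR-133 is best known in muscle for its part in myoblast proliferation and for targets in RhoA, SRF and calcineurin signalling.

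The mature sequence of miR-133b-3p (RefSeq, GRCm38.p6) is shown because its seed defines the matches counted further on, and that of miR-206-3p because its seed serves as the comparison. Capitals mark the seed, bases 2 to 8.
miR-133b-3p: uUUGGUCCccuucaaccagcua
miR-206-3p: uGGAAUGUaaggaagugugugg

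The chimeric reads summed to 232408 in the MOV control and 259207 in the MOV mimic, a ratio of 1.12 (0.16 on the log2 scale), and every comparison between libraries below is to be read against that shift. Muscle fibre genes carried much of the signal. All 10 fibre markers on the list held miR-133 reads in both libraries. They had 36.1% and 39.8% of miR-133 reads, against 10.9% and 13.0% of the reads of other miRNAs. No marker of endothelium (0 of 4), Schwann cells (0 of 3) or adipocytes (0 of 3) held a miR-133 read in either library. Macrophage markers summed to 0.788 reads in the control and 2.21 reads in the mimic. These values rest on few reads. All miRNAs together had 20.5 and 39.1 reads at endothelium, 3.24 and 0 at Schwann cell and 9.43 and 15.9 at adipocyte markers. At macrophage markers they had 52.6 and 74.4. Satellite cell markers held 0.762 and 3.26 miR-133 reads, of 3.64 and 4.62 of all miRNAs. Smooth muscle markers held 12.4 and 12.3, of 112 and 142. Fibroblast markers held 1.51% and 1.46% of miR-133 reads, led by Col1a1, against 1.91% and 1.67% of the reads of other miRNAs. In whole muscle, fewer cells of a type and less RNA per cell cannot be told apart. Transcript levels were not measured in the files used here, so more chimeras and more target RNA cannot be told apart either. Since the methods include a PCR step with a primer for miR-1, shares of miRNAs are given as properties of these libraries and not of the muscle.

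miR-133a-3p had the most chimeric reads of all miRNAs in both libraries. It held 42768 reads in 7386 peaks in the control, 18.4% of all chimeric reads, and 52291 reads in 8212 peaks in the mimic, 20.2%. miR-133b-3p ranked 4 in both, behind miR-1a-3p and miR-206-3p, with 12045 reads in 3531 peaks in the control (5.18%) and 12736 reads in 3571 peaks in the mimic (4.91%). Together they gave 54813 reads, 23.6% (23.4 to 23.8), in the control and 65027 reads, 25.1% (24.9 to 25.3), in the mimic. The ratio of mimic to control reads was 1.22 (1.21 to 1.24) for miR-133a-3p, 1.06 (1.03 to 1.08) for miR-133b-3p and 1.09 for all other miRNAs summed. After division by library totals the ratio was 1.096 for miR-133a-3p but 0.948 for miR-133b-3p, so relative to depth they lay on opposite sides of 1.

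Most peaks were small. In the control, 40.6% of the 7998 peaks held under 1 miR-133 read, a fraction of a read as deposited, and 716 peaks held at least 10 reads and carried 75% of all miR-133 reads. In the mimic, 41.5% of 8792 peaks held under 1 read and 792 peaks with at least 10 reads carried 77.7%. The peaks lay in 3512 control genes and 3820 mimic genes, with 2513 common to both, 71.6% of the control genes and 65.8% of the mimic genes. Of genes with a peak of any miRNA, 83.2% and 79.7% were common. Reads were concentrated in few of them, with 12 genes in the control and 10 in the mimic holding the first 50% of miR-133 reads.

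Where miR-133 reads were many, they were most of what the peak held. In peaks with at least 10 miR-133 reads, the median share of miR-133 in all chimeric reads of the peak was 82.6% and 79.3%, and the share was 50% or more in 587 of 716 peaks and 620 of 792 peaks. Peaks with at least 10 reads of miR-1a-3p had a median share of 53.3% and 56.1% for that miRNA, and those of miR-206-3p 36.2% and 29.99%. These values sum 2 names for miR-133 and 1 for the others, and no test of the difference was made. In the peaks where miR-133 held 50% or more, the next miRNA was miR-1a-3p with 2.06% and 2.80% of reads. Those peaks were picked by their miR-133 share, which limits what any other miRNA could hold.

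The genes with the most miR-133 reads encode the large proteins of the sarcomere. Ttn, the molecular spring that spans the sarcomere from Z-disc to M-band, ranked first with 9282 reads in 230 peaks in the control and 12007 reads in 233 peaks in the mimic. Myh1, the fast type 2X myosin heavy chain, had 4538 and 7885 reads. Myh4, the fast type 2B myosin heavy chain, had 2653 and 1898 reads, and Myh2, the fast type 2A chain, 1565 and 1920. Neb, which sets the length of the thin filament, had 1457 and 1657 reads. The plot of reads by gene shows that miR-133 reads exceeded those of all other miRNAs together in both libraries at Ttn, Myh1, Myh2, Cmss1, Tpm1, Pgam2, Actn2, Eno3, Tnni2, Fhl1 and Tpi1, which are 11 of the 20 leading genes.

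**Figure D1:**
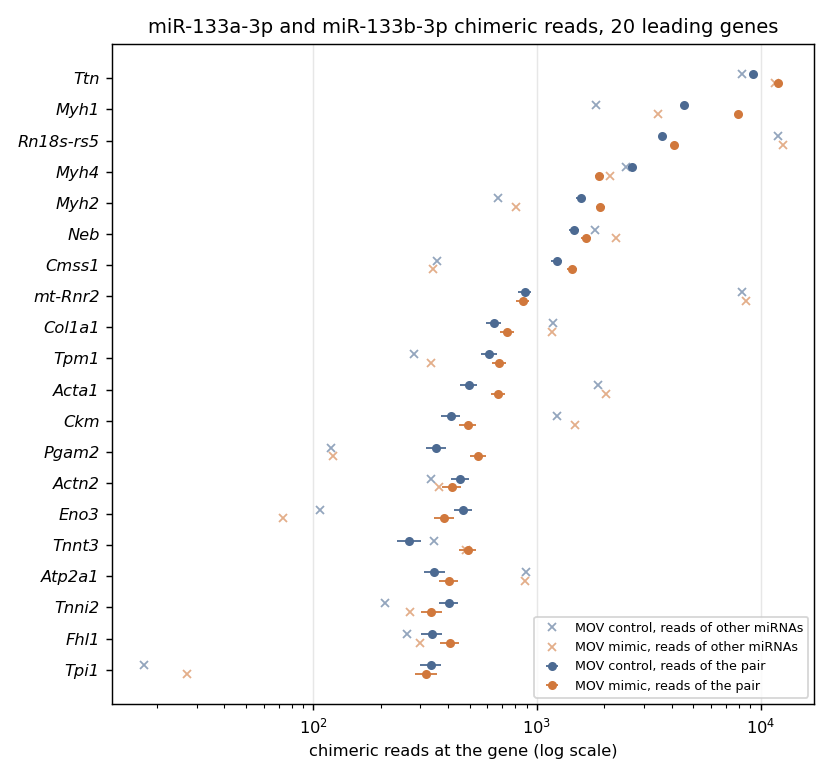
Chimeric reads at the 20 genes with the most miR-133 reads, on a log scale. Circles are miR-133a-3p plus miR-133b-3p with 95% Poisson intervals of counting error, and crosses are all other miRNAs summed; blue is the MOV control and orange the MOV mimic library. Myh1 had 4538 and 7885 miR-133 reads while Myh4 had 2653 and 1898, and Tpi1 had 334 and 319 miR-133 reads against 17.5 and 27.1 of other miRNAs.

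By gene list, the myosin heavy chains held 16.7% (16.4 to 17.0) of miR-133 reads in the control and 18.5% (18.2 to 18.8) in the mimic, and 10 of 13 members had a peak in each library. The same genes held 3.09% and 3.45% of the reads of all other miRNAs, 3.83% and 3.04% of those of miR-1a-3p, and 3.50% and 3.42% of those of miR-206-3p. Giant and M-band proteins held 21.0% and 22.4% of miR-133 reads, against 6.22% and 7.80% for other miRNAs. Thin filament genes held 3.86% and 4.01%, against 2.02% and 2.11%.

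Genes of glycolysis and glycogen breakdown held 3.64% and 3.03% of miR-133 reads, against 1.33% and 1.21% for other miRNAs. The leading members were 4 enzymes. Eno3, the muscle enolase, had 467 and 384 reads. Pgam2, the muscle phosphoglycerate mutase, had 354 and 545 reads in a single peak. Tpi1, triosephosphate isomerase, had 334 and 319 reads. Pygm, which releases glucose units from glycogen, had 283 and 273. miR-133 made up 95% (92 to 96.9) of all chimeric reads at Tpi1 in the control and 92.2% (88.8 to 94.8) in the mimic, the highest share of any gene with at least 100 chimeric reads. At Eno3 it made up 81.3% and 84.0%, and at Pgam2 74.7% and 81.6%.

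Extracellular matrix genes stood at the other end. The matrix list, with fibronectin and matricellular genes, held 0.296% (0.252 to 0.345) of miR-133 reads in the control and 0.259% (0.222 to 0.302) in the mimic, against 2.68% and 2.06% for other miRNAs and 8.50% and 7.56% for miR-206-3p. Its leading member was Postn, periostin, with 70.7 and 70.6 miR-133 reads, 11.5% and 14.6% of its chimeric reads. Fn1, fibronectin, had 33.1 and 39.7 miR-133 reads, 2.03% and 2.85% of its chimeric reads, and Thbs1, thrombospondin 1, 15.04 and 5.25 (1.49% and 0.695%). Collagens held 1.60% and 1.59%, against 2.48% and 2.22%, and most of that was 1 gene. Col1a1, the alpha 1 chain of type I collagen, had 639 and 734 reads, while Col3a1 had 151 and 140 and Col1a2 32.8 and 71.0. Myosin light chains (0.393% and 0.558%) and heat shock genes (0.333% and 0.259%) also held less of miR-133 than of other miRNAs (0.678% and 0.743%, and 0.602% and 0.621%).

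**Figure D2:**
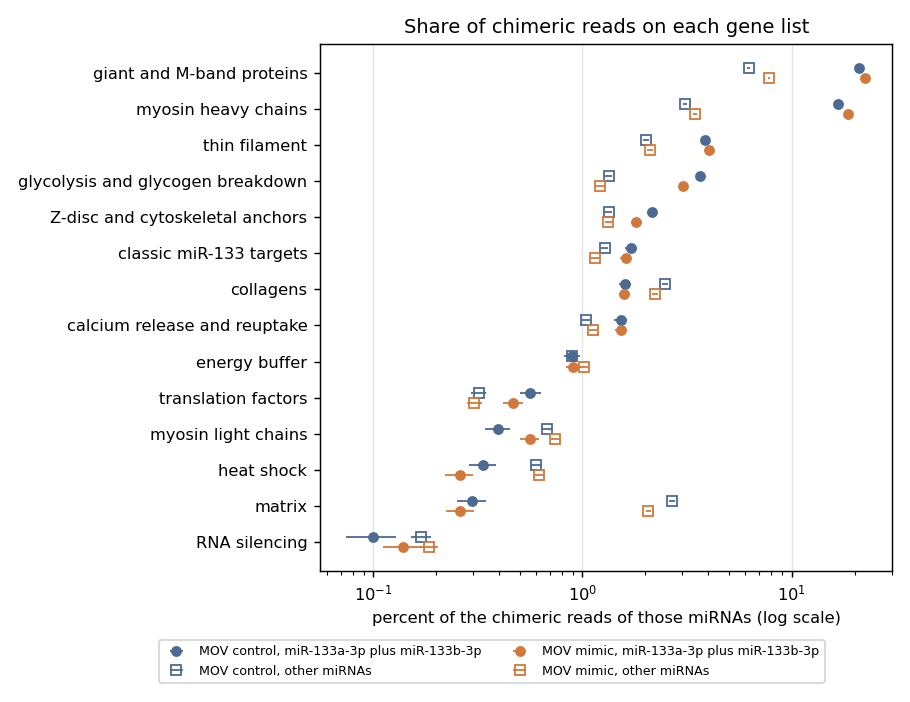
Share of chimeric reads that fell on each gene list, in percent on a log scale. Filled circles are miR-133a-3p plus miR-133b-3p and open squares all other miRNAs, with exact 95% intervals of counting error; blue is the MOV control and orange the MOV mimic. Giant proteins and myosin heavy chains lie to the right for miR-133 (21.0% and 16.7% in the control), and the matrix list to the left (0.296% against 2.68%).

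A list of 46 genes known from the literature as miR-133 targets held a small part of all miR-133 reads. A miR-133 peak was present at 24 and 26 of them, and at least 3 reads at 17 and 15. Of the 46, 34 and 35 had a peak of any miRNA. Over all genes, 6661 and 6953 had a peak of any miRNA. Of these, 3512 and 3820 had a miR-133 peak, and 1501 and 1607 at least 3 miR-133 reads. The list held 1.70% and 1.61% of miR-133 reads, against 1.28% and 1.15% of the reads of other miRNAs, and Col1a1 alone gave 639 of its 933 reads in the control. Mcl1, which protects cells from apoptosis, came next with 121 and 150 reads. Ppp2ca, a catalytic subunit of phosphatase 2A, had 40.3 and 45.9 reads. Pkm, the pyruvate kinase of muscle and many other tissues, had 31.5 and 20.2. Rhoa, the small GTPase, had 7.03 and 3.79 reads, Cdc42 had 9.03 and 10.8, Mef2c, a muscle transcription factor, had 10.5 and 5.82, and Ptbp2, a splicing regulator, had 10.7 and 8.84. The intervals of the ratio of mimic to control reads held 1 for all of these but Col1a1 (1.03 to 1.28), so a difference between libraries was not detectable there at this depth.

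The seed match was more frequent in transcripts with a high share of miR-133. The motifs searched on the sense strand were GGACCAA and GACCAAA, which share the 6 bases GACCAA and were counted once where they overlapped, in the longest GENCODE vM1 coding transcript of each symbol. Over 22594 transcripts 27.4% held a match (0.130 per kb). Of genes with at least 3 chimeric reads, 86.3% and 86.5% had a transcript. In the control, 32.3% of 1730 genes with no miR-133 reads held a match (0.108 per kb). This was 43.4% of 1433 genes where miR-133 was 10 to under 50% of reads (0.154 per kb), 53.4% of 337 genes at 50 to under 80% (0.251 per kb) and 44.9% of 138 genes at 80% or more (0.210 per kb). The median transcript was shorter in the last group (2396.5 bases) than in the first (3681.5 bases). In the mimic the density ran from 0.110 per kb in genes with no miR-133 reads to 0.244 per kb at 80% or more.

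The density of matches to the miR-206 seed (ACATTCC or CATTCCA) went the other way, from 0.147 per kb in control genes without miR-133 reads to 0.0834 per kb at 80% or more. Where miR-1a-3p and miR-206-3p, which share that seed, held 50% or more of a gene's reads, 64.3% of 437 control transcripts held the miR-206 match and 32.0% the miR-133 match. Without the myosin heavy chains, Ttn and Neb, the miR-133 density was still 0.229 per kb in control genes at 50% or more. In those genes it was 0.292 per kb of coding sequence and 0.169 per kb of 3′ untranslated region, against 0.149 and 0.111 over all transcripts. Genes share families and lengths, so these are descriptions with no test. Grouping was by shares of each gene's own chimeric reads, so a high miR-133 share leaves less for miR-1a-3p and miR-206-3p. The trends of the miR-133 and miR-206 densities are therefore not independent of each other.

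**Figure D3:**
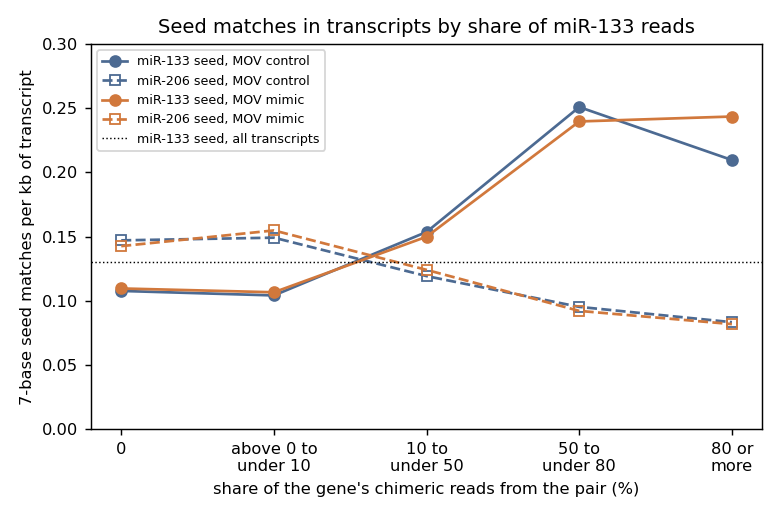
Density of 7-base seed matches, per kb of transcript, in genes grouped by the share of their chimeric reads that came from miR-133a-3p and miR-133b-3p. Solid lines are the miR-133 seed and dashed lines the miR-206 seed, blue for the MOV control and orange for the MOV mimic; the dotted line is the miR-133 density over all transcripts, 0.130 per kb. In the control the miR-133 density is 0.108 at 0% and 0.251 at 50 to under 80%, and the miR-206 density is 0.147 at 0% and 0.0834 at 80% or more.

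The 4 genes Pgam2, Asb8, Mcl1 and Col1a1, with strong peaks and a single 7-base match in the transcript, are shown since they place the match in the coding sequence or the 3′ untranslated region. Capitals mark the match. The peaks are given in mm10 and the transcripts come from an annotation of another build, so it was not tested whether peak and match coincide. The match of Pgam2 is 8 bases long and lies in the coding sequence (transcript positions 248 to 277 shown, of 840), as does that of Asb8, an ankyrin and SOCS box protein (860 to 889 of 2226). Those of Mcl1 (3383 to 3412 of 3485) and Col1a1 (4684 to 4713 of 5930) lie in the 3′ untranslated region.
Pgam2: ggaccatcctggatgttacGGACCAAAtgt
Asb8: ggcatcatgccccgagaagtGACCAAAgac
Mcl1: agctgttcccgaaagggttaGGACCAActg
Col1a1: acctttgaccaactgaacgtGACCAAAaac

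Other transcripts with strong miR-133 signal had no 7-base match. None was found in the transcripts of Eno3, Tpi1, Tpm1, Acta1, Tnni2 or Slc25a4, while that of Ttn held 34, Myh1 5, Myh2 4, Neb 4, Myh8 3 and Myh4 2. Eno3, Tpm1, Acta1, Tnni2 and Slc25a4 also lacked the 6-base core. This says only that these letters are not in the transcripts searched.

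Some peaks touched or overlapped one another, and how a read across 2 touching peaks was counted was not stated. Peaks of both libraries that overlapped or touched were therefore joined into 12251 sites, and a site's value in a library is that of its strongest peak. Reads were compared between libraries at the 3275 sites that had 1 peak in each library. Sites with more than 1 peak held 35.4% and 33.9% of miR-133 reads, so sums over a gene may count a read more than once.

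On Myh1 the strongest site was chr11:67210376-67210461 (plus strand, mm10), 10274 bases from the gene's start, with 970 and 1514 reads, a ratio of 1.56 (1.44 to 1.69). A second, chr11:67219179-67219359, had 953 and 856 reads in its strongest peak, but was divided into 3 control peaks and 4 mimic peaks. Another, chr11:67215841-67215938, had 543 and 1109 reads, with 2 control peaks and 1 mimic peak. On Myh4 the leading site, chr11:67254000-67254101, had 634 and 369 reads, with 1 peak and 2. On Myh2 it was chr11:67192460-67192586, with 469 and 632 reads. At these 5 sites miR-133 made up between 75.2% and 97.4% of all chimeric reads.

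The map of peaks along the 3 genes shows that Myh1 and Myh4 went in opposite directions at several sites. At the 7 sites of Myh1 with 1 peak in each library, all with at least 3 reads in both, reads were higher in the mimic at 7, and their sum went from 1642 to 2737 reads, a ratio of 1.67 (1.57 to 1.77). At the 4 such sites of Myh4, reads were higher in the mimic at 1, and the sum went from 525 to 248 reads, a ratio of 0.473 (0.405 to 0.550). For all peaks of the gene the ratios were 1.74 for Myh1 and 0.716 for Myh4. The other miRNAs at the same genes had ratios of 1.89 and 0.851. Myh2 had 1.23 for miR-133 and 1.21 for other miRNAs. Myh3, the embryonic myosin heavy chain, had 79.0 and 22 miR-133 reads (ratio 0.278, interval 0.165 to 0.451), and the ratio of other miRNAs there was 0.312. At Myh8, the perinatal chain, miR-133 reads were 221 and 185 (0.837, 0.685 to 1.02). Myosin heavy chain genes share long stretches of near-identical sequence, and the treatment of reads that fit several of them was not stated, so the split between them is uncertain.

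**Figure D4:**
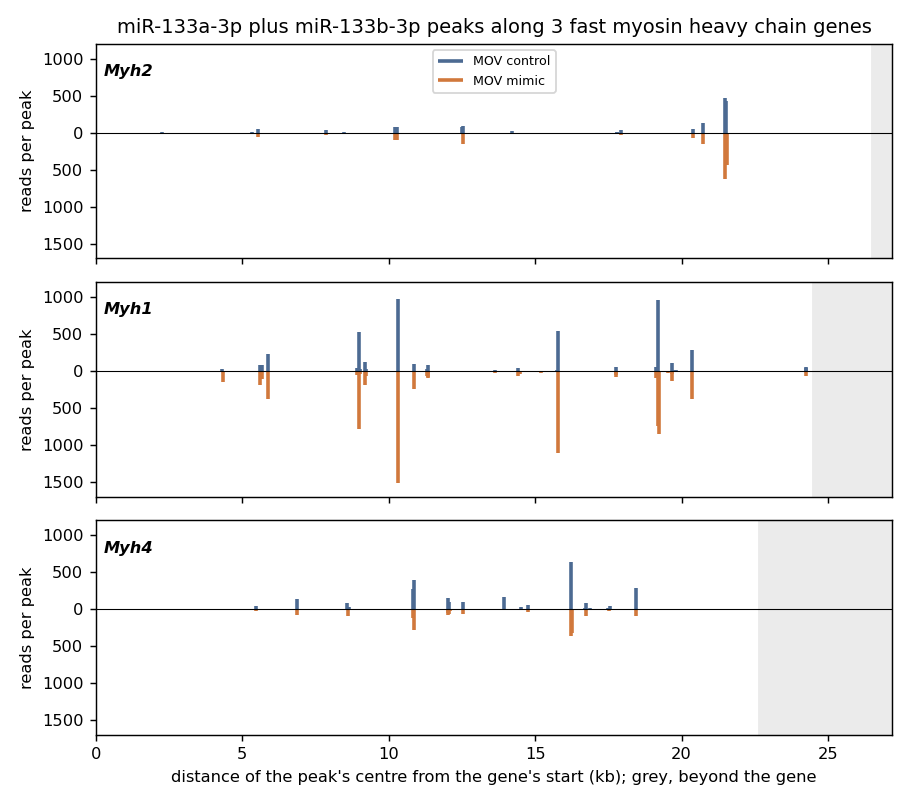
miR-133a-3p plus miR-133b-3p reads per peak along Myh2, Myh1 and Myh4, by distance of the peak's centre from the gene's start in kb. Bars upward are the MOV control and bars downward the MOV mimic, on the same linear scale; the grey area is beyond the gene's end. The strongest peak of Myh1, near 10 kb, has 970 control reads and 1514 mimic reads, and the strongest of Myh4 has 634 and 369.

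On Ttn the reads were spread over 213 sites. The strongest 3 peaks held 14.5% and 18.8% of its miR-133 reads, against 54.3% and 44.1% on Myh1. At the 72 sites of Ttn with 1 peak in each library and at least 3 reads in both, the ratio ranged from 0.317 to 4.50, with a median of 1.32 and 53 of 72 higher in the mimic. One site, chr2:76811538-76811699 (minus strand), had 335 reads in the stronger of 2 peaks in the control and 1043 reads in a single peak in the mimic. Its neighbour chr2:76812477-76812601, with 1 peak in each library, had 499 and 641 reads, a ratio of 1.29 (1.14 to 1.45). Over the gene the ratio was 1.29 for miR-133 and 1.40 for other miRNAs.

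Some leading loci were not ordinary messenger RNA. Rn18s-rs5, an 18S ribosomal RNA gene of which the genome holds many copies, had 3635 and 4081 miR-133 reads, 23.3% and 24.6% of all chimeric reads there. Cmss1, a gene named for the small ribosomal subunit, had 1227 and 1436 reads, nearly all in touching peaks at chr16:57391477-57391686 (5 in the control and 6 in the mimic), 215181 bases from the gene's start. mt-Rnr2, the mitochondrial large ribosomal RNA, had 882 and 861.

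miR-133 was scarce on the mitochondrial chromosome compared with other miRNAs. It had 34 peaks there in the control and 35 in the mimic, with 1.98% and 2.18% of miR-133 reads, against 17.3% and 17.2% of the reads of other miRNAs. The sequence of this chromosome, 16299 bases, was used to look for the 6-base match GACCAA, since all 37 of its genes have the same span in mm9 and GRCm38. The plus strand held 5 matches and the minus strand 5. Besides the loci described next, the mitochondrial peaks with at least 30 miR-133 reads had low shares of it, such as 2.85% and 3.30% of the chimeric reads at mt-Rnr2 from position 1590 and 1.71% and 1.81% at ND1, a subunit of respiratory complex I.

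At 3 mitochondrial loci the strong peaks held almost nothing but miR-133, and their sequences are shown with the 6-base match in capitals where there is one. At chrM:2350-2371 (mt-Rnr2, plus strand) the control had 2 touching peaks with 89.7 and 152 reads, in which miR-133 was 95.1% and 95.2% of all reads, and the mimic had no peak of any miRNA. At chrM:1040-1093 (the valine tRNA gene) the mimic had 2 touching peaks with 125 and 120 reads, 89.9% and 92.7% of them miR-133, and the control had no peak of any miRNA. In each of these pairs only 1 peak held the match, chrM:2358-2371 (152 reads) and chrM:1069-1093 (120 reads). The peaks chrM:2350-2357 (89.7 reads) and chrM:1040-1068 (125 reads) held none, and the sequence of the last is not shown. At chrM:2065-2117 (mt-Rnr2) both libraries had 1 peak, with 405 and 571 reads (94.8% and 93.9% miR-133), a ratio of 1.41 (1.24 to 1.61). That peak held no match. Its longest run of Watson-Crick pairs with miR-133b-3p, without gap or mismatch, was 4 bases.
chrM:2350-2371: gatcaacgGACCAAgttaccct
chrM:1069-1093: atttcatGACCAAtgaacactctga
chrM:2065-2094: catgaacggctaaacgagggtccaactgtc

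The whole loci are 22, 54 and 53 bases long in the order shown, and of all plus-strand windows of those lengths on this chromosome 0.522%, 1.51% and 1.48% hold the 6-base match. The loci were chosen after their values were seen, so these shares are background and no test. At chrM:2065-2117 miR-133b-3p was 5.18% (3.24 to 7.82) of miR-133 reads in the control and 2.18% (1.09 to 3.64) in the mimic.

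miR-133a-3p and miR-133b-3p were found on the same peaks. Of the miR-133b-3p peaks, 82.7% (81.4 to 83.9) in the control and 83.8% (82.5 to 84.95) in the mimic also held miR-133a-3p, while 39.5% and 36.4% of the miR-133a-3p peaks held miR-133b-3p. The peaks with miR-133b-3p alone were small, with a median of 0.695 and 0.649 reads and a maximum of 4.69 and 3.85. The profile of reads over genes, as log2(reads + 1) over 6661 genes in the control and 6953 in the mimic, correlated with r = 0.77 between the 2 names in both libraries. The 2 names share library, depth and possibly reads, and genes are not independent replicates.

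The share of miR-133b-3p varied between sites. Over all reads it was 22% (21.6 to 22.3) in the control and 19.6% (19.3 to 19.9) in the mimic. At the 288 control peaks with at least 30 miR-133 reads it ranged from 1.70% to 62.2%, and the interval lay below the overall share at 58 peaks and above it at 65. At the 320 such peaks in the mimic it ranged from 0% to 46.5%, with 62 below and 58 above. The highest share in both libraries was at Myh8, chr11:67292179-67292270, at 62.2% (46.4 to 75.5) and 46.5% (30.8 to 66.5), from 47.4 and 33.5 reads. A Ttn site at chr2:76942855-76942971 had 49.6% (41.6 to 57.8) and 44.6% (38.0 to 51.6), from 157 and 217 reads. Among sites with many reads, the leading Myh1 site stood at 38.1% (35.0 to 41.2) and 35.9% (33.4 to 38.3) and Col1a1 at 37.2% (33.3 to 41.3) and 35.2% (31.7 to 38.9), while Ttn chr2:76811538-76811699 stood at 9.48% (6.63 to 13.2) and 8.33% (6.73 to 10.2). Low shares were seen at Eno3 chr11:70658388-70658438, with 3.50% (0.9995 to 9.05) and 3.06% (0.37 to 10.5), and at Atp2a1, the calcium pump of fast fibres, with 3.79% and 4.90%.

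The share was alike in the 2 libraries site by site. Over the 217 sites with at least 30 reads in both, Pearson's r was 0.79 and Spearman's rho 0.80, a description over sites of 1 library each. The share was lower in the mimic at 146 of 217, with a median difference of -2.73 percentage points (mimic minus control) and quartiles of -7.41 and 1.28.

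**Figure D5:**
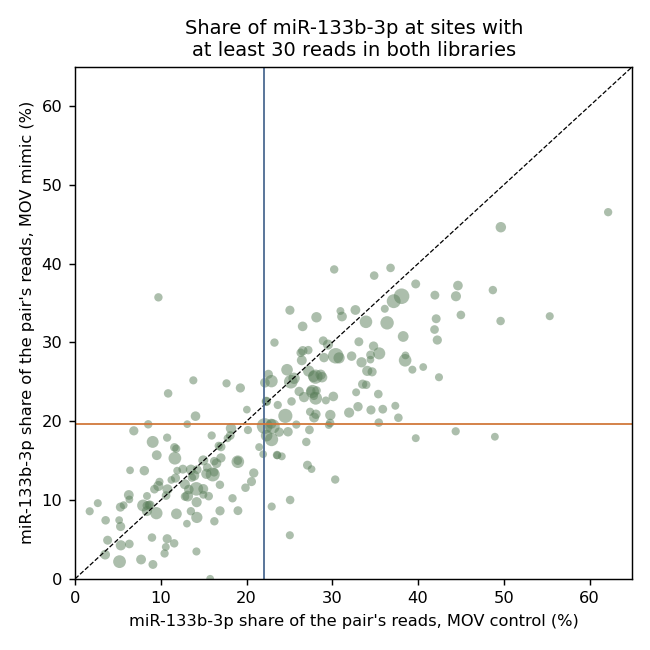
Share of miR-133b-3p in miR-133a-3p plus miR-133b-3p reads at each of the 217 sites with at least 30 reads in both libraries, MOV control across and MOV mimic upward, in percent; point size grows with control reads. The dashed line marks equal shares, and the blue and orange lines the overall shares of 22% and 19.6%. Points follow the dashed line (r = 0.79), and 146 of 217 lie below it.

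Between libraries, 50.6% of the control miR-133 peaks overlapped a mimic miR-133 peak on the same strand by at least 1 nucleotide, against 53.4% for peaks of any miRNA. Counted by name, 51.0% of control miR-133a-3p peaks and 46.5% of control miR-133b-3p peaks overlapped a mimic peak of that name. For miR-1a-3p this was 49.95%, for miR-206-3p 45.01%, and over all miRNAs 35.5%. Taking the peaks that overlapped each other more than any other peak gave 3871 pairs, at which the median log2 ratio of mimic to control reads was 0.13 (0.08 to 0.17), and after division by library totals it was -0.03. Of the 1390 pairs with at least 3 reads in both libraries, 139 were at least 2-fold higher and 77 at least 2-fold lower in the mimic, but after division by library totals 94 were higher and 113 lower. Counted per name, as can be done for every miRNA, 11.5% of 1560 pairs were 2-fold higher and 4.36% lower, against 10.2% higher and 5.58% lower over the 6308 pairs of all miRNAs. For miR-133a-3p alone these were 12.96% and 4.57% of 1181 pairs, and for miR-133b-3p alone 7.12% and 3.69% of 379 pairs. By gene, with at least 30 reads over both libraries and 3 in each, 13 of 334 genes (3.89%) were 2-fold higher in miR-133 reads and 8 (2.40%) lower, against 4.25% higher and 2.76% lower of 1953 genes by reads of all miRNAs. Shares of 2-fold changes by gene were near those of all miRNAs in both directions.

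The genes with the highest ratio of mimic to control miR-133 reads were Bnip3, a mitophagy receptor (7.28 and 25.6 reads), Dst, a cytoskeletal linker (13.6 and 41.6), Myl2, the slow regulatory light chain (7.67 and 22.4), and Ankrd23, a titin-associated stress protein (9.99 and 26.1). The ratio of other miRNAs was also above 1 at Bnip3 (2.61, 0.536 to 30.4), Myl2 (1.70, 0.685 to 4.81) and Ankrd23 (2.19, 1.67 to 2.85). At Dst the other miRNAs had 90.3 and 88.6 reads, so the share of miR-133 went from 13.1% to 31.9%. The lowest ratios were at Myh3, at Smyd1, a muscle methyltransferase that acts on myosin (22.5 and 7.64), at Cacnb1, a subunit of the muscle calcium channel (25.8 and 8.84), and at Rpl4, a ribosomal protein (23.8 and 10.5). At Cacnb1 and Rpl4 the reads of other miRNAs were higher in the mimic, from 21.0 to 37.1 and from 8.58 to 14.03. At Smyd1 the ratio of other miRNAs was 0.928, and at Myh3 it was 0.312. Among genes with more reads, Tnnt3, the fast troponin T, had 268 and 490 miR-133 reads (1.83, 1.57 to 2.13), Myl1, a fast myosin light chain, 75.5 and 163 (2.17, 1.64 to 2.90), and Pgam2 a ratio of 1.54 (1.34 to 1.76), where other miRNAs stood at 1.02. Asb8 at chr15:98135922-98136028 had 56.9 and 141 reads, a ratio of 2.48 (1.81 to 3.43).

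By list, miR-133 reads were lower in the mimic at 11 of 13 compared glycolysis genes, against 472 of 1086 of all genes with at least 3 reads in both libraries, with a median log2 ratio of -0.28 against 0.13 over all genes. The summed ratio was 0.989 (0.929 to 1.05), since Pgam2 went the other way, and other miRNAs at those genes had 0.995. Collagens were higher at 7 of 8 compared (median log2 ratio 0.54) and giant and M-band proteins at 7 of 9 (0.19). The summed ratio at collagens was 1.17 (1.07 to 1.29), where other miRNAs had 0.977. At giant and M-band proteins it was 1.27 (1.24 to 1.30), where other miRNAs had 1.37. After division by library totals, glycolysis genes were higher at 2 of 13, collagens at 7 of 8, giant and M-band proteins at 6 of 9 and all genes at 516 of 1086. Classic targets were higher at 6 and lower at 6 of 12 (-0.01). Of the lists other than cell markers, myosin light chains had the highest median (0.57, with 3 of 5 genes higher). Their summed ratio was 1.69 (1.42 to 2.01), where other miRNAs had 1.198. Heat shock genes had the lowest median (-0.50), with 3 of 6 higher and 3 at least 2-fold lower. The interval of their summed ratio, 0.921 (0.740 to 1.14), held 1. Genes of the silencing machinery had a median of -0.47 from only 2 compared genes.

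The miRNAs with the gene profile most like that of summed miR-133 reads were miR-378a-3p in both libraries (r = 0.47 and 0.50), with miR-1a-3p (0.43 and 0.43) and miR-378b (0.40 and 0.43) next and miR-206-3p (0.39 and 0.40) in place 4. The order of miR-1a-3p and miR-378b was turned in the mimic. The fifth was miR-22-3p in the control (0.38) and miR-21a-5p in the mimic (0.39). The median over 146 miRNAs was 0.20 and 0.22. All profiles come from the same library and share its target RNA.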

How the data were processed

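Chimeric eCLIP-seq of mouse plantaris gave 4 libraries, 1 per group, of which MOV control and MOV mimic had the peak files used here. The deposited values were estimated counts of chimeric reads per miRNA and peak, unscaled and often fractional, and the authors' rule for fractions was not stated. The submitters' processing notes name UMI-tools 1.1.1, cutadapt 3.2, STAR 2.7.7a, Bowtie 1.2.3, HOMER 4.11 and build mm10, while the methods name mm9. Coordinates were those of mm10, counted from 1.

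Peaks were given the RefSeq gene (GRCm38.p6) with the largest overlap on their strand. About 8% of the reads lay at genes of unknown strand (7.97% in each library). Shares, ratios and overlaps were computed in Python 3.11.15 (pandas 2.3.3, scipy 1.17.1), with peak matching and intervals tested on simulated data. Depth was 232408 and 259207 chimeric reads. Genes named were the 20 with the most reads, the 4 leading members of each list, classic targets with at least 3 reads, and the 4 highest and lowest ratios among genes with at least 30 reads. Sites named were the 12 strongest per library, at most 3 per gene, and the 6 with the highest and lowest miR-133b-3p share, of which 1 is not reported here. Asb8, Slc25a4 and the mitochondrial loci were chosen after their values were seen. Members and lists were chosen with earlier results of these data known. Alternatives covered depth scaling, minimum reads, the mitochondrial chromosome, Rn18s-rs5, each miRNA alone and overlap rules. Input libraries were not analysed here.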

Additional observations from a re-analysis of the deposited data

How the results depend on the processing

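No paired analysis was possible because the design had a single library in every group. The ratio of miR-133 reads, 1.19 as reported, was 1.06 after division by library totals, 1.21 with at least 3 reads per miRNA in a peak, 1.22 for miR-133a-3p alone, 1.06 for miR-133b-3p alone and, chosen after seeing the data, 1.17 at sites with 1 peak in each library and 1.16 without the myosin heavy chains. The median log2 ratio of shared peaks changed sign, from 0.13 to -0.026, after division by library totals, which subtract 0.16. For miR-133a-3p alone it stood at 0.18, and for miR-133b-3p alone at 0.

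As a share of peaks, miR-133 held 38.5% in the control and 40.2% in the mimic. With at least 3 reads per miRNA in a peak its share of reads was 28.9% and 30.6%, the miR-133b-3p share of it 20.2% and 18.0%, the share of miR-133b-3p peaks with miR-133a-3p 94.3% and 92.7%, the share on myosin heavy chains 19.5% and 21.2%, and the overlap of control peaks 69.5%. Without the mitochondrial chromosome, the miR-133 share was 26.8% and 28.3% and the myosin share 17.1% and 18.9%. On peaks with both names the miR-133b-3p share was 24.2% and 21.6%. The myosin share was 16.4% and 17.9% for miR-133a-3p and 18.1% and 21.0% for miR-133b-3p. The overlap was 40.7% at 50% reciprocal overlap and 45.8% from mimic to control.

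Target genes in the control, the mimic and both were 1033, 1154 and 732 with at least 3 reads per miRNA in a peak, 1602, 1765 and 1119 with at least 2 peaks, and 1825, 1826 and 1027 for miR-133b-3p. With at least 10 reads in both libraries, 42 pairs were 2-fold higher and 12 lower. Divided by library totals, 94 were higher and 113 lower. At sites with 1 peak in each library, 100 were higher and 61 lower. Of 62 alternatives in all, 19 left the value within its counting interval or the count within 1.5-fold. Depth limits single genes most, since the median target gene held 2.47 and 2.36 miR-133 reads.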

Other observations

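Translation factors held 0.564% of miR-133 reads in the MOV control and 0.466% in the MOV mimic, against 0.320% and 0.304% of the reads of other miRNAs. Eef1a2, the elongation factor of adult muscle, had 124 and 119 reads, Eif4g2, an initiation factor, 72.5 and 62.2, and Eif4a2, an initiation helicase, 31.4 and 37.1, with miR-133 at 75.9% and 74.0% of all chimeric reads there. Calcium handling genes held 1.52% and 1.53%, against 1.04% and 1.12%, led by Atp2a1 (347 and 402 reads) and Ryr1, the calcium release channel (204 and 260). Genes of the silencing machinery held 0.0992% and 0.139% of miR-133 reads, less than the 0.169% and 0.184% of the reads of other miRNAs. Tnrc6b, a partner of Argonaute, had 37.0 and 68.3 miR-133 reads (ratio 1.85, 1.21 to 2.82), while Tnrc6c had 11.0 and 3.09 (0.282, 0.0489 to 1.03).

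At 10 sites 1 library held at least 30 miR-133 reads in its strongest peak and the other had no peak of any miRNA. Besides the mitochondrial pair, the control had 167 reads at Myh4 chr11:67251710-67251761 and 61.3 at Ckm, the muscle creatine kinase, chr7:19420216-19420254. The mimic had 86.7 and 45.3 reads at sites of Rn18s-rs5, 47.0 and 33.8 at sites of Myh1, 32.0 at Acta1 and 30.02 at Myl1. Whether peak calling set these differences was not tested.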
